A study of Mus musculus with 35 samples.

Results

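Germline genes whose promoters are rich in CpG and are held silent by DNA methylation in somatic cells were followed in mouse embryonic stem cells (ESCs) differentiating to neuroectoderm. The 10 genes were taken from a list of names, Dazl, Ddx4, Mael, Sycp1, Sycp3, Tex101, Hormad1, Tex19.1, Asz1 and Stk31, and a gene was used wherever a deposited expression table has a row with that symbol. The list was chosen with earlier results of these data known, so the shares of all genes below are no independent check. The day 3 table held 8 of them among 17948 genes, the table of the Dnmt1 experiment 9 among 18091, and the table of the Tet3-CD experiment 8 among 17705. All those present passed a filter of a mean value of at least 10. The deposited tables hold no gene with a mean under 9.46, 9.35 and 3.87, so genes below that were already absent, and dropping the filter adds few genes. Tex101 had a row in the Dnmt1 experiment alone. Asz1, a germ cell protein of the piRNA pathway, had a row in no table, so no level is given for it, while its promoter and the genes around it are described.

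During development such promoters gain methylation when the embryo implants, and the maintenance enzyme DNMT1, guided by UHRF1, copies the mark at each cell division. TET enzymes oxidize methylated cytosine and so can remove it. In germ cells the products of these genes act in RNA control and transposon silencing (Dazl, Ddx4, Mael, Tex19.1, Stk31). Others act in the synaptonemal complex and chromosome axis of meiosis (Sycp1, Sycp3, Hormad1) and at the germ cell surface (Tex101). Bisulfite sequencing of these cells was not analysed here, so the values below are RNA levels, and the question asked of them is whether they follow the level of Dnmt1.

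RNA-seq values of 26 samples in 3 experiments were used. The ESCs are of the v6.5 line (male, mixed 129/B6 background) and carried wild-type Tet3 (WT), substitutions in the iron binding site of TET3 that remove its catalytic activity (Mut), or a deletion of an exon that shifts the reading frame (KO). In the day 3 experiment cells were differentiated for 72 hours without LIF in 1 uM retinoic acid (RA), with 3 WT, 3 Mut and 2 KO samples, each from an independent clone. In the Dnmt1 experiment cells of each genotype were transfected at the start of differentiation with an empty vector (EV) or with Myc-tagged Dnmt1 driven by the CAG promoter and were selected with blasticidin, with 2 samples in each of the 6 groups. In the Tet3-CD experiment cells of each genotype were transfected during differentiation with an EV or with the wild-type catalytic domain of TET3 (Tet3-CD), with 1 sample in each group; the labels give 72 hours for it, whereas the methods of the study describe a later collection. The study names 3 biological replicates as its general rule, but the Dnmt1 experiment has 2 samples a group and its labels do not say that these came from separate cultures, so p-values there measure the spread between these samples, which may be technical. The values are normalized counts, which were traced back to 31155842 to 50845950 reads per sample. Each table was normalized on its own, so levels were tested within a table only.

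Tet3, the targeted gene, had 4613, 4577 and 5020 normalized counts in the day 3 WT samples, 2666, 2277 and 1945 in Mut and 1796 and 2329 in KO. It was lower in all Mut samples and in both KO samples than in any WT sample, by 1.05 (fold change -1.05 ± 0.13 SE on the log2 scale, limma adjusted p = 0.00071) and by 1.21 (-1.21 ± 0.15, adjusted p = 0.0274). With EV in the Dnmt1 experiment it averaged 3016 ± 83.8 (SD, n = 2) in WT, 1044 ± 114 in Mut and 2546 ± 35.8 in KO. The row counts the whole gene, including exons outside the deletion, so its level does not check the KO label.

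Dnmt1 itself had 15500, 17005 and 16760 normalized counts in the day 3 WT samples, 13237, 13978 and 14201 in Mut and 15619 and 13661 in KO. All Mut values lay below all WT values, yet the difference of -0.25 ± 0.09 (log2) missed the threshold (limma adjusted p = 0.0852), and KO overlapped both (adjusted p = 0.359 against WT). With EV, Dnmt1 was 14679 and 15225 in WT, 11285 and 11934 in Mut and 17356 and 17554 in KO. Here the genotypes did not overlap, with Mut below WT (-0.37 ± 0.07, adjusted p = 8.23e-05) and KO above it (0.22 ± 0.07, adjusted p = 0.00647), both under 1.5-fold. With the Dnmt1 vector it reached 22799 and 23768 in WT, 20245 and 23211 in Mut and 33380 and 39854 in KO, a rise of 0.64 ± 0.07, 0.90 ± 0.07 and 1.06 ± 0.07 over EV. The row adds up reads of the transfected copy and of the cell's own gene, which cannot be told apart.

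**Figure D1:**
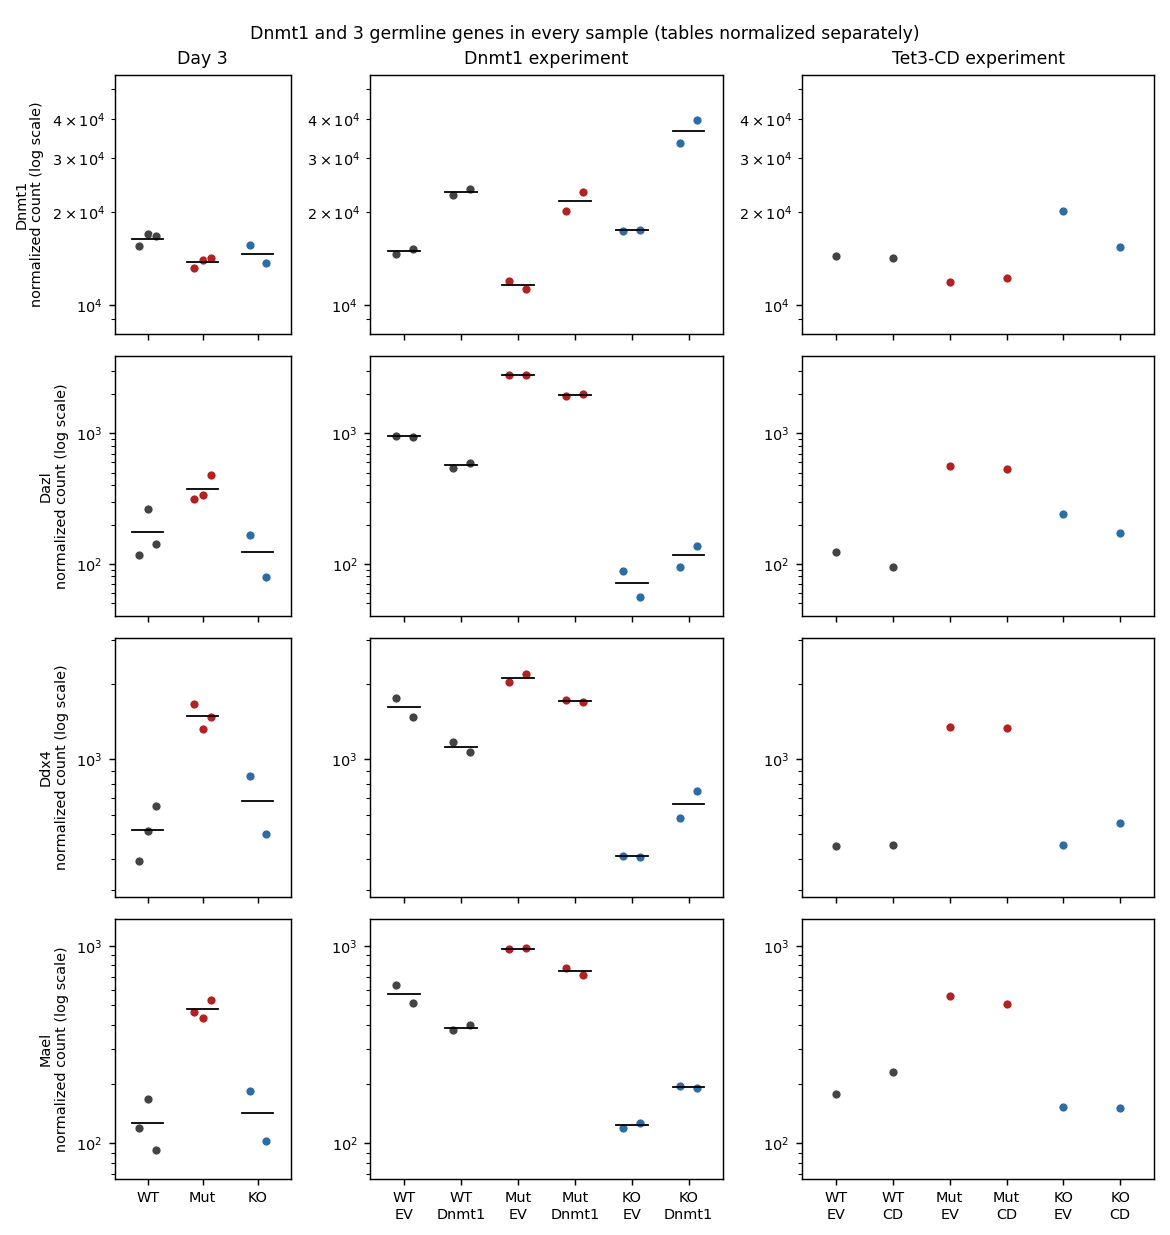
Normalized counts (log scale) of Dnmt1, Dazl, Ddx4 and Mael in every sample, by genotype and vector, in the 3 experiments; points are samples (grey WT, red Mut, blue KO), lines are means where a group has more than 1 sample. The Mut samples lie highest for the germline genes at day 3, and with EV in the Dnmt1 experiment Dazl runs from 2799 in Mut through 949 in WT to 71.9 in KO.

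At day 3, Mael, Ddx4 and Dazl were higher in Mut than in WT. Mael, a piRNA pathway protein, had 120, 168 and 92.9 normalized counts in WT, 463, 434 and 536 in Mut and 185 and 102 in KO. Ddx4, the germ granule helicase, had 392, 518 and 647 in WT, 1672, 1322 and 1477 in Mut and 854 and 503 in KO. Dazl, an RNA-binding regulator of translation in germ cells, had 117, 265 and 142 in WT, 313, 336 and 484 in Mut and 165 and 79.7 in KO. For each of these genes all 3 Mut samples lay above every WT and KO sample, while KO overlapped WT. The share of all genes with such a separation is not given.

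A gene was called changed when its adjusted p over all genes was under 0.05 and its fold change exceeded 1.5 on the log2(value + 1) scale, which understates changes of low genes. In Mut against WT 3 of the 8 germline genes were called, all higher, where 5.06% of all genes were. Mael rose 3.83-fold (1.94 ± 0.27, limma adjusted p = 0.00137), Ddx4 2.91-fold (1.54 ± 0.22, adjusted p = 0.00151) and Dazl 2.25-fold (1.17 ± 0.35, adjusted p = 0.0496). The call of Dazl rested on the margin. It was lost with edgeR (adjusted p = 0.0576) and with a mean of at least 50 (limma adjusted p = 0.0517). With the replicate number as a block it was lost too (limma adjusted p = 0.0587). It was lost without WT sample 1 (0.93), WT sample 3 (1.07), Mut sample 1 (1.29), Mut sample 2 (1.24) or Mut sample 3 (0.98). The median fold change of the 8 genes was 1.21 (log2), that of all genes 0.0008.

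The meiotic genes Sycp1, Sycp3 and Hormad1 lay on the same side without passing, as did Tex19.1, while Stk31 lay on the other (-0.25, not called). Sycp1, which forms the transverse filaments of the synaptonemal complex, had 58.8, 137 and 90.9 normalized counts in WT and 260, 191 and 203 in Mut, with 131 and 52.4 in KO (Mut against WT 1.25 ± 0.38, limma adjusted p = 0.0544). It was called with a pseudocount of 5 (adjusted p = 0.0497), with DESeq2 (adjusted p = 0.0122) and without WT sample 2, KO sample 1 or KO sample 2. Sycp3, of the lateral elements, had 0, 6.54 and 4.94 in WT, 19.5, 21.9 and 19.3 in Mut and 28.6 and 10.2 in KO, so that WT lay below both other genotypes. Its difference in Mut (2.58 ± 0.81, adjusted p = 0.0582) passed with DESeq2 (adjusted p = 0.033) and with a pseudocount of 5 (1.60). Its WT sample at 0 reads allows a value of up to 2.89, and its WT mean of 3.83 shows that it passed the filter through the other genotypes. Hormad1, of the meiotic chromosome axis, ran from 16.9 to 71.3 in Mut and from 17.7 to 28.9 in WT, with 70.0 and 38.7 in KO. Tex19.1, a germ cell factor that restrains retrotransposons, ran from 455 to 783 in Mut and from 449 to 532 in WT; reads may be shared with its paralog Tex19.2. Stk31, a Tudor domain protein of the testis, ran from 116 to 163 in Mut and from 148 to 188 in WT. Mut and WT overlapped for Hormad1, Tex19.1 and Stk31, while both KO samples lay above WT for Hormad1.

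In KO against WT at day 3 limma called 0 of the 8 genes (edgeR and DESeq2 0 also, and 1 gene, Sycp3, at an unadjusted p under 0.05), where 0.642% of all genes were called and 20.1% had an unadjusted p under 0.05. Fold changes ran from -0.51 for Dazl to 2.36 for Sycp3, with a median of 0.23 against -0.014 over all genes. In KO against Mut 3 genes were called, all lower, where 4.33% of all genes were: Mael by -1.78 ± 0.31 (limma adjusted p = 0.00497), Dazl by -1.68 ± 0.39 (adjusted p = 0.0204) and Ddx4 by -1.18 ± 0.25 (adjusted p = 0.0123). This comparison shares the Mut samples with that of Mut and WT. Leaving out KO sample 2 ended the call of Dazl (-1.16) and of Ddx4 (-0.80), and that of Dazl also ended without Mut sample 2 (-1.75) or Mut sample 3 (-1.49). Sycp1, at -1.37 ± 0.43 (limma adjusted p = 0.0625), was called with DESeq2 (-1.24) and without KO sample 1 (-2.02). Leaving out any 1 sample, its value ran from -2.02 to -0.71.

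Some genes of other germline lists were called higher at day 3 as well, where 5.06% of all genes were. Of 16 further piRNA pathway genes 5 rose in Mut, with Rnf17 at 1.87 ± 0.15 and Piwil2, a PIWI protein, at 1.21 ± 0.31 the largest, followed by Mov10l1 (1.07), Tdrd12 (0.97) and Tdrd5 (0.76). Of 23 further meiosis genes 5 rose, Sycp2 (2.66 ± 0.62), Meioc (1.81), Syce1 (1.79), Smc1b (1.09) and the recombinase gene Dmc1 (1.07). Of 9 other germ cell genes 4 rose, Taf7l (2.37 ± 0.33), Sohlh2 (1.61), Slc25a31 (1.58) and Tex14 (1.49). The medians of the lists were 0.64, 0.40 and 1.49 (log2), with lowest values of -0.39, -1.98 and 0.26.

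Genes of the methylation machinery and of germline gene repressors were read beside them. Of the 9 methylation genes, Dnmt3l rose in Mut (1.30 ± 0.17, limma adjusted p = 0.000909) and Tet3 fell. Dnmt3b passed on p and not on fold (0.53 ± 0.11, adjusted p = 0.0092). The others were at -0.30 (Uhrf1), -0.25 (Dnmt1), 0.13 (Tet1), 0.11 (Tet2), -0.12 (Tdg) and -0.03 (Dnmt3a). In KO against WT only Tet3 passed, with Uhrf1 at -0.48 ± 0.12 (adjusted p = 0.0744). Of 19 genes for repressors that act on germline promoters 3 fell in Mut, where 5.19% of all genes did: Cbx3 (-1.12 ± 0.10), Tfdp1 (-0.77 ± 0.15) and Ehmt2 (-0.64 ± 0.13). The highest was at 0.45. The genes around Cbx3, Tfdp1 and Ehmt2 were not described, and whether a local change had a part in their falls was not tested.

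Markers of other cell states also differed between these samples. All 5 markers of the 2-cell-like state (Zscan4c the most abundant) rose in Mut by 2.02 to 2.39 (log2), and their summed level was 1149 to 2110 in WT, 5896 to 9678 in Mut and 1431 and 2451 in KO. The summed level of 7 naive pluripotency markers (Tbx3 the most abundant) was 7412 to 10411 in WT, 9698, 12652 and 23648 in Mut and 7888 and 10382 in KO. Of these 7 markers 0 were called in Mut, with fold changes of 0.23 to 0.86, and the sum of Mut sample 1 lay within the WT range. Of 7 primordial germ cell (PGC) markers 3 rose and 1 fell in Mut, and their sum was 2950 to 4286 in WT, 3201 to 5467 in Mut and 2265 and 2732 in KO. Of 6 neuroectoderm markers (Nes the most abundant) 3 fell in Mut, with sums of 16231 to 22606 in WT, 13669 to 17785 in Mut and 23071 and 26363 in KO. Nes made up 19689 and 21181 of the KO sums, and each of the other 5 was lower in both KO samples than in any WT sample (-0.48 to -3.75). Sox1 and Pax6, which mark neuroectoderm, were at 1962 ± 984 and 1708 ± 311 (SD, n = 3) in WT. No marker of these lists was at 0 in all samples, and Hes5, a neuroectoderm marker, was at 0 in Mut sample 1. The sum of 6 feeder cell markers (Col1a1 the most abundant) was 13070 to 20365 in WT, 8394 to 15351 in Mut, where 1 of them rose, and 28140 and 34382 in KO. That of 6 endoderm markers (Lama1 the most abundant) was 13552 to 17994, 19780 to 35578 and 11508 and 14115, and 1 of them rose in Mut. In bulk RNA fewer cells of a type and less RNA per cell cannot be told apart, and the part of these cell states in the germline values was not tested.

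In the Dnmt1 experiment with EV, Dazl, Sycp3, Mael and Ddx4 ran from Mut through WT to KO. Dazl had 935 and 963 normalized counts in WT, 2795 and 2804 in Mut and 56.1 and 87.7 in KO. Sycp3 had 87.0 and 89.9 in WT, 198 and 244 in Mut and 3.17 and 11.4 in KO. Mael had 515 and 633 in WT, 962 and 977 in Mut and 120 and 127 in KO. Ddx4 had 1473 and 1757 in WT, 2044 and 2198 in Mut and 407 and 408 in KO. None of these groups overlapped. Groups of 2 samples can separate without a real difference. The share of all genes that separate is not given, here and in the comparisons below.

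In Mut against WT with EV 5 of the 9 genes were called, all higher, where 10.3% of all genes were. They were Dazl (1.56 ± 0.16, 2.95-fold, limma adjusted p = 6.23e-08), Sycp3 (1.30 ± 0.46, adjusted p = 0.0234), Tex19.1 (0.87 ± 0.07), Mael (0.76 ± 0.12) and Sycp1 (0.74 ± 0.18). Ddx4 passed on p but not on fold (0.40 ± 0.10, 1.32-fold), and Hormad1 (0.31), Stk31 (0.24) and Tex101 (0.20) did not pass. The call of Sycp3 was lost without any of the 4 samples compared, at 1.15 to 1.45. The median was 0.74, against 0.0068 over all genes.

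In KO against WT with EV 8 of the 9 genes were called, all lower, where 13.9% of all genes were. Dazl was 13.3-fold lower (-3.74 ± 0.16, limma adjusted p = 7.25e-14) and Sycp3 12.4-fold (-3.64 ± 0.46, adjusted p = 8.38e-07), from 3 and 14 reads in KO; without KO EV sample 1 or 2 the value of Sycp3 was -4.42 or -2.85, and it was called in both cases. Hormad1 (-2.56 ± 0.34), Mael (-2.20 ± 0.12), Ddx4 (-1.98 ± 0.10), Tex101 (-1.86 ± 0.57), Sycp1 (-1.40 ± 0.18) and Stk31 (-0.72 ± 0.15) fell as well, while Tex19.1 passed on p alone (-0.24 ± 0.07). Tex101, with 4.23 and 8.12 normalized counts in KO and 23.7 and 24.4 in WT, lost its call without KO EV sample 2 (-1.46). Sycp3 and Tex101, at means of 7.27 and 6.18 in KO, passed the filter through the groups where they were higher, which favours a lower KO value among the genes kept. The median was -1.98, against 0.0034 over all genes. At day 3 none of these genes was called lower in KO than in WT; the difference between the experiments was not tested, since their tables were normalized separately.

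The other germline lists were mostly lower in KO as well. With EV 9 of 17 piRNA genes, 20 of 28 meiosis genes and 9 of 10 other germ cell genes fell in KO (13.9% of all genes), and 1 piRNA gene and 1 meiosis gene rose. In Mut with EV 5, 11 and 6 rose (10.3% of all genes), and 2 piRNA and 3 meiosis genes fell. The piRNA median in Mut was -0.20 (log2), unlike the medians of the meiosis genes (0.38) and the other germ cell genes (1.17). In KO with EV, Terb2 was at 0 in both samples, Ankrd31 at 3.25 and 2.12 and Mei1 at 3.25 and 4.23 normalized counts. Such genes passed the filter through the groups where they were higher, which favours a lower KO value in these lists too. The 7 naive markers summed to 24000 and 24571 in WT, 69041 and 71306 in Mut and 7274 and 7770 in KO, with all 7 called higher in Mut and 6 lower in KO. The 5 markers of the 2-cell-like state (Zscan4d the most abundant) summed to 11523 and 12449 in WT, 10632 and 11988 in Mut, which overlapped WT, and 960 and 982 in KO, with 5 called lower in KO. All 7 PGC markers (Kit the most abundant) fell in KO, summing to 2998 and 3150 against 7265 and 7300 in WT, and 4 rose and 2 fell in Mut. The endoderm sum was 55705 and 59997 in WT, 171175 and 192743 in Mut and 16144 and 16682 in KO, and the feeder sum 14977 and 16518, 2818 and 3049, and 27408 and 27694. Lama1 and Col1a1 carried much of these sums: all 6 endoderm markers rose in Mut, but in KO 4 fell and 1 rose, and of the 6 feeder markers 4 fell and 1 rose in Mut and 2 rose and 1 fell in KO. Neuroectoderm markers summed to 14232 and 14758 in WT, 16353 and 16819 in Mut and 16739 and 17092 in KO. Sox2, the most abundant over all samples, made up 14051 and 14731 of the Mut sums and rose there, while 4 of the 6 fell in Mut (median -1.67). In KO Nes made up 11862 and 12451 of the sums, and 3 markers rose and 2 fell. None of the marker genes was at 0 in a sample of this experiment, and the part of these states in the germline values was not tested.

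Of the methylation genes, Tet2 (1.16 ± 0.09) and Tet1 (0.90 ± 0.09) rose in Mut with EV and Tet3 fell (-1.53 ± 0.08). Dnmt3l (-1.88 ± 0.08), Tet1 (-0.86 ± 0.09) and Dnmt3b (-0.67 ± 0.05) fell in KO with EV. Uhrf1 was at -0.34 ± 0.04 in Mut and -0.37 ± 0.04 in KO, both past the p threshold and under 1.5-fold. Dnmt3a (0.37 and 0.22), Dnmt3b in Mut (0.21), Dnmt3l in Mut (0.47), Tdg (-0.20 and 0.27), Tet2 in KO (-0.30) and Tet3 in KO (-0.24) were likewise under 1.5-fold.

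In WT the Dnmt1 vector was followed by lower Dazl, Ddx4 and Mael. Dazl had 546 and 597 normalized counts with Dnmt1 against 935 and 963 with EV, Ddx4 1074 and 1174 against 1473 and 1757, and Mael 375 and 398 against 515 and 633. Each pair of groups was separate, which groups of 2 samples can be without a real difference. By limma 1 of the 9 genes was called, Dazl, 1.66-fold lower (-0.73 ± 0.16, adjusted p = 0.0098), where 0.753% of all genes were called lower. Ddx4 (-0.52 ± 0.10, 1.43-fold, adjusted p = 0.0037) and Mael (-0.56 ± 0.12, 1.48-fold, adjusted p = 0.00762) passed on p and fell short of 1.5-fold; both were called without WT EV sample b (-0.65 and -0.71), and Mael also without WT Dnmt1 sample 2 (-0.61). Sycp3 had 28.7 and 48.4 against 87.0 and 89.9 (-1.22 ± 0.46, adjusted p = 0.123) and was called by edgeR (adjusted p = 0.0298) and DESeq2 (adjusted p = 0.0103). Tex101 had 6.04 and 10.6 against 23.7 and 24.4 (-1.47 ± 0.57, adjusted p = 0.142). All 9 fold changes were below 0 and their median was -0.52, against 0.0016 over all genes, but those of Sycp1 (-0.01) and Hormad1 (-0.01) were at 0 within their errors, and that of Hormad1 was above 0 with edgeR (0.03) and DESeq2 (0.04). The call of Dazl was lost without either WT EV sample (-0.71 and -0.75) or without WT Dnmt1 sample 1 (-0.67).

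In Mut these 3 genes were also lower with the vector, and none was called. Dazl had 1950 and 2005 normalized counts with Dnmt1 against 2795 and 2804 with EV (-0.50 ± 0.16, limma adjusted p = 0.0546), Ddx4 1701 and 1723 against 2044 and 2198 (-0.31 ± 0.10, adjusted p = 0.0566), and Mael 712 and 776 against 962 and 977 (-0.38 ± 0.12, adjusted p = 0.0456). The groups did not overlap, and 0 of the 9 genes were called by limma, edgeR or DESeq2 (4 at an unadjusted p under 0.05 in limma), where 2.46% of all genes were called and 23.3% had an unadjusted p under 0.05. Of the 9 fold changes 8 were below 0, with a median of -0.31 against -0.0015 over all genes, and Hormad1 was at 0.34 ± 0.34. The effect of the vector in Mut minus that in WT ran from -0.23 for Sycp1 to 0.87 for Tex101, and 0 genes were called by the 3 tools (0 at an unadjusted p under 0.05), where 0.604% of all genes were called and 10.9% had an unadjusted p under 0.05.

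In KO the vector was followed by higher Hormad1, Dazl, Ddx4 and Mael. Hormad1 had 32.2 and 40.5 normalized counts with Dnmt1 against 8.12 and 14.8 with EV, Dazl 94.1 and 138 against 56.1 and 87.7, Ddx4 580 and 744 against 407 and 408, and Mael 190 and 195 against 120 and 127. No pair of groups overlapped, again with 2 samples in each and no share over all genes to set beside it. These 4 of the 9 genes were called, all higher, where 2.51% of all genes were: Hormad1 3.09-fold (1.63 ± 0.34, limma adjusted p = 0.0023), Dazl 1.62-fold (0.69 ± 0.16, adjusted p = 0.00635), Ddx4 1.61-fold (0.69 ± 0.10, adjusted p = 9.14e-05) and Mael 1.56-fold (0.64 ± 0.12, adjusted p = 0.00103). The call of Dazl was lost without KO EV sample 2 (0.37) or KO Dnmt1 sample 2 (0.42), and Ddx4 went under 1.5-fold without the latter (0.51). All 9 fold changes were above 0, with a median of 0.64 against 0.0096 over all genes, though Sycp3 (0.57 ± 0.46, from 5 to 19 reads with Dnmt1) turned to -0.22 without KO EV sample 2 and to -0.05 without KO Dnmt1 sample 1. With the vector Dazl in KO still lay below both WT groups.

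The difference of the vector's effect between KO and WT was tested directly. Of the 9 genes 5 were called, all with the effect more positive in KO, where 2.66% of all genes were: Hormad1 (1.63 ± 0.47, limma adjusted p = 0.0324), Dazl (1.42 ± 0.23, adjusted p = 0.000389), Ddx4 (1.20 ± 0.14, adjusted p = 1.25e-05), Mael (1.20 ± 0.17, adjusted p = 9.80e-05) and Stk31 (0.74 ± 0.21, adjusted p = 0.0281). Calls of Hormad1 and Stk31 were lost without WT EV sample a (1.80 and 0.68) or WT EV sample b (1.46 and 0.80). They were also lost without WT Dnmt1 sample 1 (1.28 and 0.81); that of Hormad1 without KO EV sample 1 (1.23) or KO Dnmt1 sample 2 (1.47), and that of Stk31 without KO EV sample 2 (0.62), WT Dnmt1 sample 2 (0.68) or KO Dnmt1 sample 1 (0.60). Sycp3, at 1.79 ± 0.64 (limma adjusted p = 0.0881), was called without KO EV sample 1 (2.57) or KO Dnmt1 sample 2 (2.40). Leaving out any 1 sample, its difference ran from 1.01 to 2.57. Stk31 had 219 and 266 normalized counts with Dnmt1 against 172 and 205 with EV in KO, and 227 and 248 against 297 and 323 in WT. Other lists differed in the same direction: 4 of 17 piRNA genes, 10 of 28 meiosis genes, 5 of 10 other germ cell genes, 2 of 7 naive markers and 4 of 5 markers of the 2-cell-like state were called more positive in KO, the last with a median of 1.27 against 1.20 for the 9 genes. Of the neuroectoderm markers 1 of 6 was called more negative. The part of these states in the difference was not tested.

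**Figure D2:**
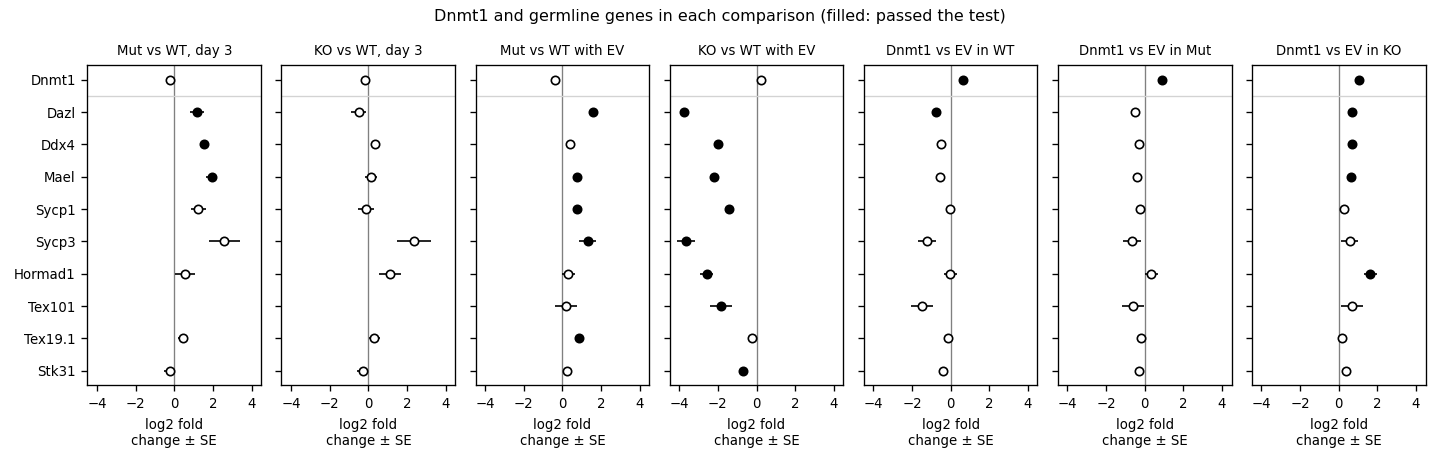
Fold changes (log2, ± SE, limma) of Dnmt1 and the 9 measured germline genes in 7 comparisons; filled points were called (adjusted p under 0.05 and over 1.5-fold), open points were not. With the Dnmt1 vector Dnmt1 rose in each genotype, whereas Dazl was at -0.73 in WT, -0.50 in Mut and 0.69 in KO.

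Further germline genes also differed with the Dnmt1 vector. Of all genes 0.421% were called higher and 0.753% lower with it in WT, 1.78% and 0.681% in Mut and 2.51% and 1.02% in KO. In WT 3 of 17 piRNA genes fell, Gpat2 (-0.68 ± 0.15), Mov10l1 (-0.65 ± 0.13) and Piwil2 (-0.59 ± 0.14), and 2 of 10 other germ cell genes, Taf7l (-0.82 ± 0.17) and Sohlh2 (-0.75 ± 0.08). Of 28 meiosis genes 2 fell, both from few reads: Syce3 had 18 and 30 reads with EV and 0 and 4 with Dnmt1, and Mei1 10 and 16 against 0 and 2. In Mut Mov10l1 alone passed, again lower (-0.62 ± 0.13). In KO the vector was followed by higher Tdrd12 (0.68), Sycp2 (1.47), Meioc (0.62), Hsf2bp (0.59), Taf7l (0.89), Brdt (0.70) and Tex15 (0.60). Ankrd31 (2 and 4 reads with EV, 10 and 12 with Dnmt1) and Terb2 (0 reads in both EV samples, 4 and 6 with Dnmt1) were also called higher there. Gtsf1 (6 and 13 reads against 0 and 2) and Ly6k (6 in each against 0 and 2) were called lower. Of the 5 markers of the 2-cell-like state 3 fell in WT (median -0.60), with sums of 7751 and 8038 with Dnmt1, and 3 rose in KO (median 0.68), with sums of 1413 and 1717. In Mut they ran from -0.44 to -0.13 (median -0.30), with sums of 9127 and 9536. Of 7 naive markers 4 rose in KO (median 0.60), with sums of 9959 and 9982; in WT they ran from -0.16 to 0.22. Of 6 neuroectoderm markers Zic1 rose in WT, Zic1 and Nes rose in Mut, and in KO the 6 ran from -0.65 to 0.40 (median -0.37, 5 at an unadjusted p under 0.05, as were 26.3% of all genes). Of 6 feeder markers 3 rose in Mut (median 0.65) and 2 fell in KO (median -0.11), and 1 of 7 PGC markers rose in KO. The part of these states was not tested. The 19 repressor genes lay between -0.26 and 0.21 in the 3 genotypes, and of the 9 methylation genes Dnmt1 alone was called, with Uhrf1 at 0.11 ± 0.04 in WT, 0.24 ± 0.04 in Mut and -0.23 ± 0.04 in KO.

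The Tet3-CD experiment has no replicate check, and its differences carry counting error only. The Tet3 row rose from 1850 to 5232 normalized counts with Tet3-CD in Mut, and stood at 4755 and 5441 in WT and at 2070 and 2759 in KO. Past 1.5-fold in either direction were 2 of the 8 germline genes in WT (13.4% of all genes), Sycp1 at 0.61 and Hormad1 at -1.48 from 4 against 12 reads. In Mut it was 1 (10.1% of all genes), Hormad1 at -0.65, and in KO 1 (21.5% of all genes), Sycp3 at -1.08 from 10 against 21 reads. Dazl was 124 with EV and 94.8 with Tet3-CD in WT, 567 and 531 in Mut and 242 and 173 in KO. Ddx4 was 450 and 452 in WT, 1350 and 1341 in Mut and 455 and 555 in KO. Mael was 177 and 231 in WT, 559 and 509 in Mut and 153 and 151 in KO. Thus the Mut samples with Tet3-CD stayed near those with EV for these genes.

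Between genotypes with EV in this experiment, 7 of the 8 genes were past 1.5-fold in Mut, all higher (36.3% of all genes were past it in either direction), with Dazl at 2.18, Hormad1 at 1.87, Mael at 1.65, Ddx4 at 1.58 and Sycp1 at 1.30 (log2). Sycp3 was the exception, with 19 reads in each. In KO 4 were past it (27.1% of all genes), all higher: Tex19.1 at 1.95, Dazl at 0.96, Stk31 at 0.93, and Hormad1 from 38 against 12 reads. Ddx4 (0.02) and Mael (-0.21) were close to WT. Dnmt1 was 14455 in WT, 11859 in Mut and 20150 in KO with EV, and 14184, 12269 and 15451 with Tet3-CD. The markers of the 2-cell-like state summed to 1554 in WT, 13438 in Mut and 1591 in KO with EV, and the endoderm markers to 246590, 42544 and 54666. Naive markers summed to 11327, 18426 and 12747, neuroectoderm markers to 8154, 17647 and 8463, PGC markers to 6210, 3858 and 8063 and feeder markers to 18299, 19873 and 15218. Single genes carried some of these sums: Nes was 5410 in WT and 15200 in Mut, where Sox1, Pax6, Hes5 and Zic1 were below WT, and Kit was 5333 in WT and 1966 in Mut, where the other 6 PGC markers were above WT. Lum, a feeder marker, was at 0 with Tet3-CD in Mut and KO.

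Set beside Dnmt1, the germline genes took opposite sides in some comparisons and the same side in others. The samples fall into genotype and vector groups of 2 or 3, so no correlation was computed over them. With EV, where Dnmt1 ran 11609, 14952 and 17455 from Mut through WT to KO, Dazl ran 2799, 949 and 71.9, and all 9 genes had the sign opposite to Dnmt1 in both comparisons with WT (8 in Mut without Mut EV sample 2). These comparisons share the WT samples. Of all genes 50.7% were above 0 in Mut against WT with EV and 50.4% in KO against WT with EV. With the vector the share was 50.4% in WT, 49.6% in Mut and 52% in KO. When Dnmt1 was raised by the vector, all 9 in WT and 8 of 9 in Mut had the opposite sign, and in KO all 9 had the same sign as Dnmt1. Some of these signs are of values near 0: in WT the tally was 8 with edgeR, with DESeq2 and without either WT EV sample, and 7 without WT Dnmt1 sample 1, and in KO it was 8 without KO EV sample 2 or KO Dnmt1 sample 1. At day 3, where Dnmt1 was not called in any genotype comparison, 7 of 8 genes had the opposite sign in Mut against WT, 5 of 8 in KO against WT and 7 of 8 in KO against Mut. The tallies with KO do not hold a direction. In KO against Mut, Dnmt1 itself was at 0.08 ± 0.10 and turned to -0.014 without KO sample 1. In KO against WT it stayed below 0, at -0.26 to -0.07 leaving out any 1 sample, and germline genes changed sign. Without KO sample 1 the tallies were 3 of 8 against Mut and 4 of 8 against WT. Without Mut sample 3 that against Mut was 5 of 8, with Dnmt1 at 0.10. Leaving out any 1 sample, the tallies with KO ran from 3 to 7 against Mut and from 4 to 6 against WT. That of Mut against WT stayed at 7. Of all genes 50.1% were above 0 in Mut against WT, 48.4% in KO against WT and 49.3% in KO against Mut at day 3. Mean Dnmt1 there ran from WT (16422 ± 808, SD, n = 3) through KO (14640 ± 1385, n = 2) to Mut (13805 ± 505, n = 3), with KO overlapping both. The means of Ddx4, Mael, Tex19.1 and Sycp3 ran in the reverse order, those of Dazl and Sycp1 were lowest in KO, which overlapped WT, Hormad1 was highest in KO and Stk31 in WT. In the Tet3-CD experiment, with 1 sample a group, the sides also varied. With EV, Dnmt1 was at -0.29 (log2) in Mut over WT, with 7 of the 8 genes above 0. In KO over WT it was at 0.48, again with 7 of 8 above 0. Of those 7 in KO, Ddx4 (0.02), Sycp3 (0.05) and Sycp1 (0.23) lay within their counting error. With Tet3-CD over EV in KO, Dnmt1 was at -0.38 and 7 of 8 genes were below 0 (median -0.45). Of those 7, Mael (-0.02), Stk31 (-0.12), Hormad1 (-0.51) and Sycp3 (-1.08) lay within their counting error. There the PGC sum went from 8063 to 3845 and the endoderm sum from 54666 to 24086. The naive sum went from 12747 to 10075 and the 2-cell-like sum from 1591 to 1805. The neuroectoderm sum went from 8463 to 14582, with Nes at 5042 and 12359, and the feeder sum from 15218 to 18267. The part of these states was not tested. In WT and Mut, Dnmt1 was at -0.03 and 0.05.

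The order of the groups differed between Dnmt1 and the germline genes. The Dnmt1 vector raised Dnmt1 in Mut to 21728 ± 2098 (SD, n = 2), which overlapped WT with the same vector (23284 ± 685), yet Dazl was 1978 ± 39.5 in that Mut group and 572 ± 36.2 in WT. In KO with EV, Dnmt1 was 17455 ± 140, lower than in WT with the vector, and Dazl was 71.9 ± 22.4. From high to low the Dazl groups ran Mut EV, Mut Dnmt1, WT EV, WT Dnmt1, KO Dnmt1 and KO EV, with no overlap between neighbours. Mael had the same order without overlap, and Ddx4 the same order with Mut Dnmt1 overlapping WT EV. Sycp1 and Sycp3 followed it with overlap of the KO groups, and for Sycp1 of the WT groups. Tex19.1 ran Mut EV, Mut Dnmt1, WT EV, KO Dnmt1, WT Dnmt1 and KO EV without overlap, from 1998 to 921. Hormad1 was highest in Mut with Dnmt1 (111 ± 3.76) and lowest in KO with EV (11.5 ± 4.73). Stk31 ran Mut EV, WT EV, Mut Dnmt1, KO Dnmt1, WT Dnmt1 and KO EV, from 365 to 189, with WT EV overlapping Mut Dnmt1 and KO Dnmt1 overlapping WT Dnmt1. Tex101, at 4.23 to 35.2 in all samples, overlapped between neighbouring groups except Mut Dnmt1 and KO Dnmt1.

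The genes around the members gave a local background at day 3, taken as up to 20 tested genes on each side in RefSeq gene order (40 in all, but 33 for Tex19.1). In Mut against WT the medians of these neighbours were -0.08 for Mael, 0.06 for Ddx4, -0.03 for Dazl, -0.06 for Sycp3 and -0.0009 for Sycp1 (log2), against 0.15 for Hormad1 and -0.24 for Tex19.1. On chromosome 6, which also carries Tet3, the neighbours of Stk31 had a median of -0.79, those of Asz1 -0.64 and those of Tet3 itself -0.89. Stk31 at -0.25 and Tet3 at -1.05 lay in stretches whose genes were lower in Mut, whereas in KO the same medians were -0.10, 0.17 and 0.0019. Whether this stretch has a part in the value of Stk31 was not tested.

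The promoters of the members were described in windows of 250 bases before and 50 after each annotated start from RefSeq (GRCm38.p6). For the alignment of the reads the methods of the study name mm39 and the submitters' notes mm10, so no coordinate was carried over. All 10 genes matched, with 12 windows. They held 15 to 38 CpG, with a median of 24 against 7 in all 32851 windows, and the observed over expected CpG had a median of 0.765 against 0.384. The E-box CACGTG, the letters bound by MGA and MAX, was in 8 of the 12 windows (66.7%) and in 7.15% of all. The letters TCCCGC, the core bound by E2F6, were in 7 windows on either strand (58.3%) and in 20.0% of all. By gene, 6 had the E-box, 6 the other motif, 5 both and 3 neither. A match is a description of the window and not a bound site. The genes were listed as having promoters rich in CpG, so the CpG counts restate the list. CACGTG and TCCCGC each hold a CpG, so their shares may partly follow from it. No comparison was made with windows of like CpG content.

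A window of each of the 4 genes that rose in KO with the Dnmt1 vector is shown (the first of 2 for Hormad1, whose starts lie 2 bases apart), 5′ to 3′ on the strand of the gene, with matches to CACGTG and TCCCGC (or its reverse complement) in capitals. Dazl (chr17:50293571-50293870, minus strand) held 28 CpG and no match, Ddx4 (chr13:112652261-112652560, minus strand) 38 CpG and 1 match of each, Mael (chr1:166238695-166238994, minus strand) 24 CpG, 1 E-box and 2 matches of the other, and Hormad1 (chr3:95559427-95559726, plus strand) 24 CpG, 2 E-boxes and 1 of the other. Dazl thus has neither motif in this window, and Ddx4, Mael and Hormad1 have both.
Dazl: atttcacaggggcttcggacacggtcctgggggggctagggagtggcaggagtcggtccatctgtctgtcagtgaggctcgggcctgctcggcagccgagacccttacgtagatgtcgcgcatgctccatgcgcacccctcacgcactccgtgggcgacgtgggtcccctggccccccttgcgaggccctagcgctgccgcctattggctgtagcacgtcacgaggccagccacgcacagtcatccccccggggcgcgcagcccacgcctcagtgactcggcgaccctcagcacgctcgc
Ddx4: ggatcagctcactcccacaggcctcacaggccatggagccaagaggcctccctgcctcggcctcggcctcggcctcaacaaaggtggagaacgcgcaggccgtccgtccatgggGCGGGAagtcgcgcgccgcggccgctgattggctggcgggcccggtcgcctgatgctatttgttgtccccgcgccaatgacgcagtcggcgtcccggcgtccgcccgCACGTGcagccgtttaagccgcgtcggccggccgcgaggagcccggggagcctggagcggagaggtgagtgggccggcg
Mael: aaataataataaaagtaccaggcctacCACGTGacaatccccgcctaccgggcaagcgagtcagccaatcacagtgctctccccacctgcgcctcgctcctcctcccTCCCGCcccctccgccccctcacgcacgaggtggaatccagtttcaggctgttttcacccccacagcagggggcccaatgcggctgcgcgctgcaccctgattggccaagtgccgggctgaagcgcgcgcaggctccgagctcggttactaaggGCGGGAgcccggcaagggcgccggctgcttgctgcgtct
Hormad1: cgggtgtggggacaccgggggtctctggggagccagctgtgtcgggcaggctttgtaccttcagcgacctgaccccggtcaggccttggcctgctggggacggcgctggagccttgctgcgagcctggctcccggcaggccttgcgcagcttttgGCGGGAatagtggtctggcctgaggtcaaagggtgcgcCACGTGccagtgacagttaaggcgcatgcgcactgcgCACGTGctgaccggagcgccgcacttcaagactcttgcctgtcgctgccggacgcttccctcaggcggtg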

How the data were processed

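RNA-seq values of 26 samples were used. The authors trimmed reads with Trim Galore 0.6.7, aligned them with STAR 2.7.9a to mm39 (the submitters' processing notes name mm10), counted them per gene with featureCounts and divided the counts by DESeq2 size factors, so the deposited signal is a normalized count. Low values in each sample were whole multiples of the value of 1 read, and 100.0% of values came out within 0.01 of a whole number of reads, which gave 31155842 to 50845950 reads per sample. Floors of 3 counts cover counting error only.

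Genes with a mean value of at least 10 were tested on log2(value + 1) with limma 3.58.1 (R 4.3.3; eBayes with trend; Benjamini-Hochberg adjustment over all genes), with all groups of an experiment in the same fit. A call needed more than a 1.5-fold change, with its adjusted p below 0.05. The 6 samples of the Tet3-CD experiment were compared by log2 ratios with no test. Alternatives were a pseudocount of 5, no filter, a mean of at least 50, edgeR 4.0.16 (quasi-likelihood, TMM) and DESeq2 1.42.0 on the recovered reads, the replicate number as a block, and each sample left out in turn; the fit was tested on simulated data. Pairs of samples of the same group differed by more than sampling noise. The chi-square per gene was 13.84 to 87.18 at day 3, where samples are independent clones. In the Dnmt1 experiment it was 3.96 to 11.11, so its pairs lay closer together than any at day 3. Its p-values do not measure the spread between clones seen at day 3. Columns of the WT EV samples of the Dnmt1 experiment share a name and are called a and b.

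The members and gene lists were chosen with earlier results of these data known. All members and methylation genes were named, with the called genes of the piRNA, meiosis, germ cell and repressor lists in Mut against WT at day 3 and with the Dnmt1 vector (at most 5 per list). Gene order came from RefSeq (16588 day 3 genes matched by name). Bisulfite and binding data were not used here. Figures were drawn with matplotlib 3.10.9 (Python 3.11.15).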

Additional observations from a re-analysis of the deposited data

Results flagged for a closer look

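The effect of the Dnmt1 vector was called different between KO and WT by limma's interaction term for 5 of 9 germline genes, where 2.66% of all genes were called in that direction. The difference (KO minus WT, log2) was 1.63 for Hormad1, 1.42 for Dazl, 1.20 for Ddx4, 1.20 for Mael and 0.74 for Stk31, each over 1.5-fold. Tex19.1, at 0.34, passed on adjusted p and not on fold. Of 5 markers of the 2-cell-like state 4 were called in the same direction (median 1.27). Dnmt1 itself differed by 0.42, since its rise with the vector was larger in KO (1.06) than in WT (0.64). The cell's own transcripts and the vector's were not separated in that value.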

How the results depend on the processing

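Across the other settings 507 of the log2 fold changes of the germline genes and Dnmt1 kept their direction and side of the threshold, 7 passed it, 3 no longer did and 2 reversed, and 103 counts stayed within 1.5 times while 7 did not. All 45 ratios of the Tet3-CD experiment moved by less than their counting error with a pseudocount of 5. Germline genes called in Mut against WT at day 3 went from 3 to 5 with a pseudocount of 5 and to 5 with DESeq2. Genes called in KO against WT at day 3 went from 115 to 223 with a pseudocount of 5, 58 with a mean of at least 50 (fewer genes tested) and 916 with DESeq2. Germline genes called with Dnmt1 in WT went from 1 to 2 with edgeR and 2 with DESeq2, and Hormad1 there went from -0.0053 to 0.033 and 0.035. Where no reason is given, the cause was not tested.

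Leaving out each sample in turn, where a group left with 1 sample is assumed to vary like the others, the genes called ran from 0 to 706 in KO against WT at day 3, 1146 to 2210 in KO against Mut, 76 to 294 with Dnmt1 in WT, 366 to 1025 with Dnmt1 in KO, and 474 to 1086 for the difference between KO and WT. Germline genes called ran from 1 to 4 in KO against Mut, 0 to 2 with Dnmt1 in WT, 2 to 4 in KO and 3 to 5 for that difference. Values not called that crossed 0 (log2) were, in KO against WT at day 3, Mael (-0.27 to 0.58), Sycp1 (-0.77 to 0.54), Stk31 (-0.70 to 0.11), Tex19.1 (-0.095 to 0.72), Ddx4 (-0.016 to 0.75) and Dazl (-1.03 to 0.013). In KO against Mut they were Stk31 (-0.45 to 0.36), Sycp3 (-0.92 to 0.48), Dnmt1 (-0.014 to 0.18) and Tex19.1 (-0.53 to 0.28). With Dnmt1 they were Hormad1 (-0.36 to 0.35) and Sycp1 (-0.061 to 0.037) in WT and Sycp3 (-0.22 to 1.35) in KO. Tex101 in Mut against WT with EV (-0.13 to 0.53), and Hormad1 (-0.0067 to 0.71) and Tex19.1 (-0.091 to 0.042) in the difference between Mut and WT, crossed it too.

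With the replicate number as a block, 1893, 98 and 1521 genes were called in Mut against WT, KO against WT and KO against Mut at day 3 (germline genes 2, 0 and 3), and 402 and 561 with Dnmt1 in Mut and KO (germline genes 0 and 4). Dazl in Mut against WT was the germline call that changed (adjusted p = 0.0587 by limma with the block). Same-numbered samples correlated at -0.098 to 0.082 (day 3) and -0.053 to 0.029 (Dnmt1 experiment), so no shared deviation by number was seen. Whether same-numbered samples were paired in the design is not shown by this. WT EV columns carry no number, and comparisons with them had no such fit. Genes at a few reads, such as Sycp3 and Tex101, are limited by depth.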
